A study of Mus musculus with 6 samples.

Results

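The genes described here are 10 genes of the circadian clock, Per1, Per2, Per3, Cry1, Cry2, Arntl (which encodes BMAL1), Clock, Dbp, Nfil3 and Bhlhe40, out of 24940 genes in the deposited table. They were taken by gene symbol, and each symbol matched 1 row. The data are counts of polyadenylated RNA from primary hepatic stellate cells, the liver's retinoid-storing mesenchymal cells, isolated from wild-type female mice of the strain C57BL/6JBomTac. Treatment began 2 days after isolation, and 3 libraries were made after 5 µM forskolin and 3 after an equal volume of dimethyl sulfoxide (DMSO, 1:1000), here called vehicle. Forskolin, which switches on adenylyl cyclase and so raises cyclic AMP, was present for 3 h. The medium was then replaced and RNA was collected 21 h later, 24 h after the start. The labels give 1 time of collection, no time of day and no age of the mice, and they do not say whether libraries A, B and C of a group came from separate animals or cultures. The p-values below can therefore speak only of the spread among 6 libraries, whose source may be technical.

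The mammalian clock is a feedback loop of transcription. CLOCK and BMAL1 bind E-box DNA and switch on the Per and Cry genes, whose proteins return to the nucleus and inhibit them. A coupled loop of the REV-ERB repressors (Nr1d1, Nr1d2) and ROR activators controls Arntl and Nfil3. DBP activates and NFIL3 represses through D-box DNA, and BHLHE40 represses at E-boxes. Most cell types, cultured fibroblasts and liver cells among them, hold such a clock, and agents that raise cyclic AMP are known to reset it through CREB, a factor that binds cyclic AMP response elements (CREs) near Per1 and Per2. Because a culture holds many cells and was read at 1 time, a shift in phase, a change in amplitude and a change in mean level cannot be told apart here. Nor can fewer cells with a transcript and less of it per cell be told apart in RNA from whole cultures.

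The forskolin libraries held 10890193 to 12954310 counts each and the vehicle libraries 13001358 to 15090262.5. All forskolin libraries were thus shallower, and calls lost with library size as a covariate are given beside each gene or list below. All 10 stellate cell markers examined (Lrat, Reln, Des, Pdgfrb, Hgf, Ngfr, Lhx2, Hand2, Col1a1 and Acta2) were above 1 CPM (counts per 1000000, on scaled library sizes) in every library. Of these 10, 3 rose and 5 fell, where 24.8% and 25.1% of all genes tested did. Reln, 1 of the 3 that rose, overlapped between the groups. The sum of the 10 markers was 3913 to 4111 CPM with vehicle and 3746 to 3818 CPM with forskolin, with Hgf 2.02-fold higher and Ngfr 2.50-fold lower. The summed level of 6 hepatocyte markers was 0.288 to 0.945 CPM and that of 4 lymphocyte markers 0.221 to 0.729 CPM over all libraries, with the hepatocyte gene Serpina1a at 0 counts throughout. The sum of 8 macrophage markers was 34.3 to 36.5 CPM with vehicle and 37.5 to 38.9 CPM with forskolin, Marco being at 0 counts throughout, Lyz2 2.57-fold lower and Cd68 1.41-fold and Csf1r 1.38-fold higher. Only 3 of the 8 were above 1 CPM in every library, and Cd68 overlapped between the groups. The sum of 7 sinusoidal endothelial markers was 200.6 to 210.7 CPM with vehicle and 86.2 to 88.2 CPM with forskolin, and the sum of 4 cholangiocyte markers 68.5 to 77.5 and 35.0 to 44.5 CPM. No marker of either list was at 0 counts throughout, but only 2 of the 7 and 2 of the 4 were above 1 CPM in every library. The endothelial and the cholangiocyte sum were each mostly 1 gene: Flt4 fell from 194.8 to 79.7 CPM and Krt19 from 71.3 to 35.1 CPM. At low levels, the endothelial genes Kdr and Lyve1 also fell, 2.91-fold and 1.55-fold, whereas Stab2 and Sox9 rose 2.47-fold and 2.28-fold. The endothelial genes Pecam1, Cdh5 and Clec4g and the cholangiocyte genes Krt7 and Epcam were under 1 CPM on average in both groups. So were the macrophage genes Adgre1, Clec4f, Vsig4 and Timd4. The sums of the stellate, macrophage, endothelial and cholangiocyte markers thus all lay apart between the groups, and their part in the results below was not tested. The marker genes singled out here were chosen after their values were seen.

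At 24 h, 6 of the 10 clock genes were higher after forskolin and 1 was lower, while Per1, Cry1 and Arntl did not pass the test. Per2 rose 2.11-fold, Nfil3 1.93-fold, Cry2 1.85-fold, Dbp 1.69-fold, Bhlhe40 1.63-fold and Per3 1.44-fold, and Clock fell 1.15-fold. All 10 passed the filter on low counts. Over all 13357 genes tested, 49.9% passed (edgeR quasi-likelihood test, Benjamini-Hochberg adjusted p under 0.05), 24.8% higher and 25.1% lower. The 7 of 10 clock genes are to be read against that share. The median log2 fold change, forskolin over vehicle, was 0.62 for the 10 genes and 0.01 for all genes tested. The 3 libraries of each group did not overlap for 9 of the 10 genes, 8 higher and 1 lower, where 57.3% of all genes tested showed no overlap, 28.9% higher and 28.4% lower. Only Per2 was changed at least 2-fold.

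**Figure D1:**
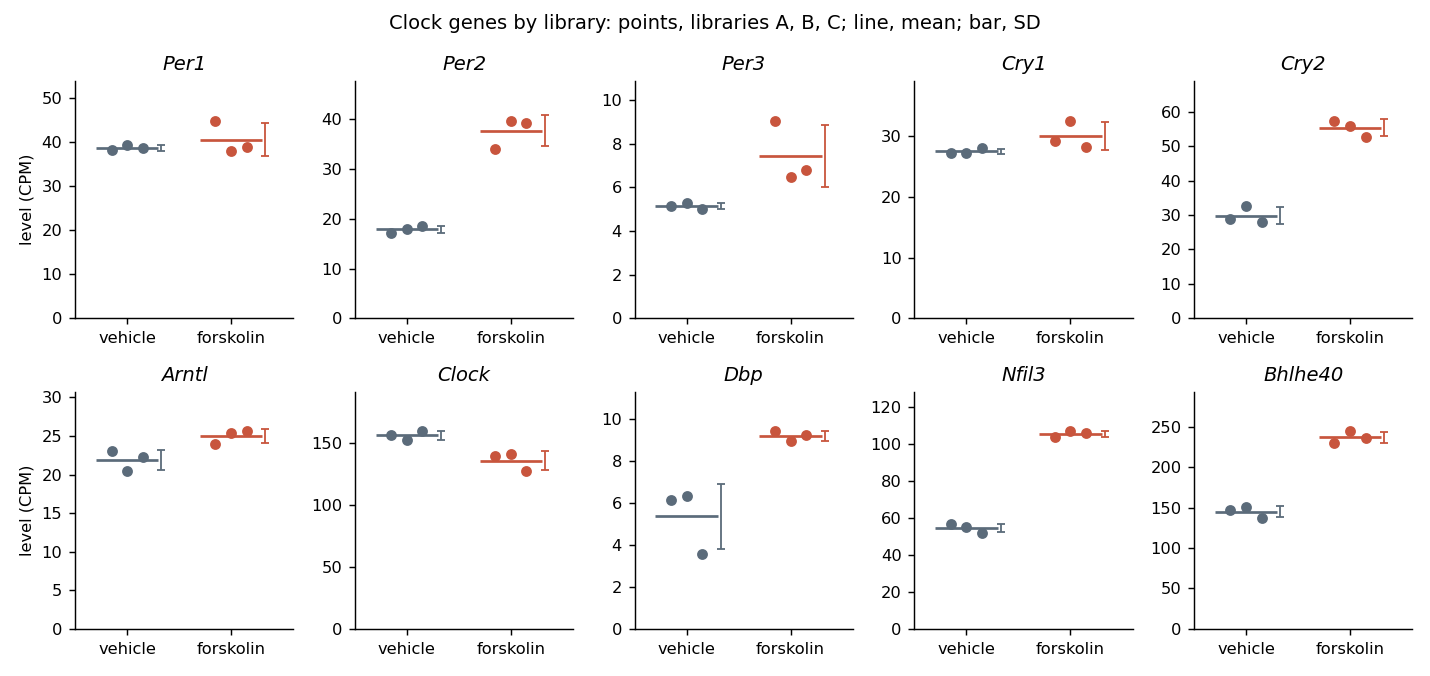
Level of each of the 10 clock genes in CPM (vertical axis from 0) in the 3 vehicle and 3 forskolin libraries, shown left to right as A, B and C. Points are libraries, the horizontal line is the mean and the bar beside it the SD; the groups are apart for every gene except Per1, Clock alone is lower with forskolin, and vehicle C is low for Dbp.

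**Figure D2:**
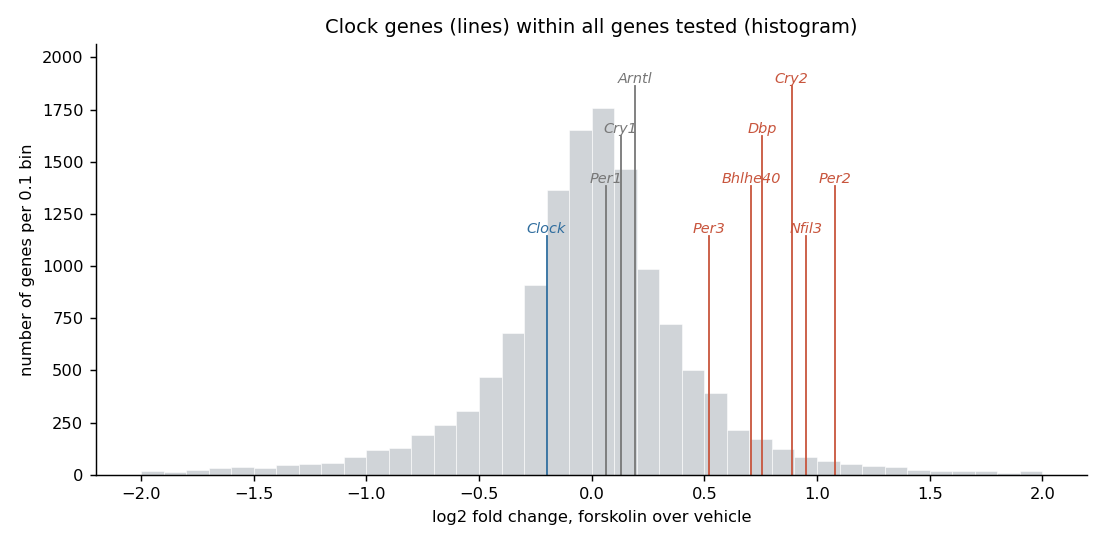
Log2 fold change of the 10 clock genes (labelled lines: red rose, blue fell, grey did not pass) over the histogram of the genes tested (vertical axis, number of genes per bin of 0.1). The histogram holds 13163 genes between -2 and 2, 194 lie outside it, and line heights carry no value; 6 clock genes lie at 0.52 or above.

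Promoter sequence is shown for 5 of the genes, because the known inputs of the clock act through short motifs and these windows hold them. Of the 10 genes, 8 had an entry in the RefSeq promoter table (build GRCm38.p6, the assembly also called mm10), Per2 and Bhlhe40 being without one. The 250 bases before each listed start were searched on both strands for the E-box CACGTG, its variant CACGTT, the D-box as TTATGTAA or TTACGTAA, the CRE TGACGTCA, the CRE core TGACG (which lies within the CRE) and the core of the ROR element, TAGGTCA. For Per1 the first of its listed starts is shown. Sequences run 5′ to 3′ on the gene's own strand and end at the base before the start. Capitals mark every match, a match on the opposite strand being printed as its reverse complement.
Per1 (chr11:69098699-69098948, plus strand): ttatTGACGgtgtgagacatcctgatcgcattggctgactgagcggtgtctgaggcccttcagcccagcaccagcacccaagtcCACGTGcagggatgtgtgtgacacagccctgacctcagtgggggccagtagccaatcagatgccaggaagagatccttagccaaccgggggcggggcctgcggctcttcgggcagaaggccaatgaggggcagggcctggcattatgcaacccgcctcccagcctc
Per3 (chr4:151044666-151044915, minus strand): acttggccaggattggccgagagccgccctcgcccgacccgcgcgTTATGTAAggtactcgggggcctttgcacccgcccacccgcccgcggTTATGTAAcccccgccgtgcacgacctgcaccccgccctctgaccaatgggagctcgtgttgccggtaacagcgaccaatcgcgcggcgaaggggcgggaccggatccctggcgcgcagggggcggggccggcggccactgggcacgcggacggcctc
Cry1 (chr10:85185055-85185304, minus strand): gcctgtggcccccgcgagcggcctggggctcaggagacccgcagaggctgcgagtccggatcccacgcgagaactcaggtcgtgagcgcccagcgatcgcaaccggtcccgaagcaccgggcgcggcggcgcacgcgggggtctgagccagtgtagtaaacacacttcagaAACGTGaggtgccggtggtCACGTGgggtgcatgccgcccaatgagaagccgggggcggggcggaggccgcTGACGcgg
Cry2 (chr2:92434070-92434319, minus strand): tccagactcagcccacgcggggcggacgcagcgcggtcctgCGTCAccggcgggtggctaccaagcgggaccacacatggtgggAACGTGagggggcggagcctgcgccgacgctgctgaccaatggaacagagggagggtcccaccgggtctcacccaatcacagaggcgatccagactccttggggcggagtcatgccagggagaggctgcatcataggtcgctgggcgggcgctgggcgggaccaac
Nfil3 (chr13:52981040-52981289, minus strand): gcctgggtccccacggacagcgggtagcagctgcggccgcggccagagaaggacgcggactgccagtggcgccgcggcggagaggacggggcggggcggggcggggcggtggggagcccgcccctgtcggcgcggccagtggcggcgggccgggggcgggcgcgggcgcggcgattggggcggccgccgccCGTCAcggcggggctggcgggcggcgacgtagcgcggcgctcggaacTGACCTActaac

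Per1 and Cry1, which did not pass the test at 24 h, were the genes with the E-box CACGTG in this window, 161 to 166 and 55 to 60 bases before the start. That motif was in 6.02% of the 32851 promoters of the table. Per3 held the D-box letters TTATGTAA at 2 places, 151 to 158 and 198 to 205 bases before the start, a motif found in 0.931% of all promoters. Cry1 and Cry2 each held the E-box variant as AACGTG on the opposite strand (3.85% of promoters). Nfil3 held the ROR element core 6 to 12 bases before its start, as TGACCTA on the opposite strand (2.23% of promoters). The CRE core was in the windows of Per1, Cry1, Cry2 and Nfil3 and in 17.8% of promoters, and the full CRE in none of the 12 windows of these 8 genes and in 1.55% of promoters. The windows of Arntl, Clock and Dbp held none of these letters. A match describes letters in this window and is neither a binding site nor a cause, and the absence of a match says nothing of the factor.

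The Period genes encode the PER proteins, the rate-limiting inhibitors of the loop. Per2 (mm10 chromosome 1, 91415982 to 91459328, minus strand) was at 17.2, 17.9 and 18.5 CPM in vehicle A, B and C and at 34.1, 39.8 and 39.4 CPM in forskolin A, B and C. Every forskolin library was far above every vehicle library, with forskolin A the lowest of its group. The log2 fold change was 1.08 (edgeR SE 0.0856, adjusted p = 6.75e-09), and 5.90% of all genes tested had a larger absolute change. Per3 (chromosome 4, 151003655 to 151044665, minus strand), the member with least effect on the core loop in mice, was at 5.13, 5.29 and 5.0 CPM with vehicle and 9.07, 6.46 and 6.82 CPM with forskolin. The vehicle values lay close together and forskolin A stood above the other forskolin libraries. Its log2 fold change of 0.52 (edgeR SE 0.168, adjusted p = 0.015) did not pass without forskolin A (0.37, adjusted p = 0.0828), nor with library size as a covariate (0.27, adjusted p = 0.437).

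Per1 (chromosome 11, 69098949 to 69109957, plus strand), the Period gene best known as an early target of CREB, was at 38.1, 39.4 and 38.5 CPM with vehicle and 44.8, 37.8 and 38.7 CPM with forskolin. The groups overlapped, and forskolin A alone lay above the vehicle range. The log2 fold change was 0.06 with an unadjusted 95% interval of -0.09 to 0.22 (edgeR adjusted p = 0.514), and it was -0.012 without forskolin A. Earlier times were not analysed here. Per exon length, the ratio of Per1 to Per2 within a library was 2.60 to 2.76 with vehicle and 1.19 to 1.64 with forskolin. Per1 and Per2 were thus closer in level in each forskolin library than in any vehicle library.

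Cry1 and Cry2 encode the cryptochromes, PER partners that bind CLOCK and BMAL1 and block them. Cry2 (chromosome 2, 92403647 to 92434069, minus strand) was at 28.8, 32.6 and 28.1 CPM with vehicle and 57.4, 56.0 and 52.5 CPM with forskolin, well apart. Its log2 fold change was 0.89 (edgeR SE 0.0725, adjusted p = 9.98e-09). Cry1 (chromosome 10, 85131700 to 85185054, minus strand) was at 27.3, 27.3 and 28.0 CPM with vehicle and 29.3, 32.6 and 28.3 CPM with forskolin. All forskolin values lay above the vehicle values, by little in forskolin C, and the log2 fold change of 0.13 (95% interval -0.04 to 0.30, edgeR adjusted p = 0.192) did not pass. The level of Cry2 relative to Cry1, per exon length, was 0.754 to 0.898 with vehicle and 1.29 to 1.47 with forskolin. Cry1 was thus the more abundant cryptochrome transcript in each vehicle library and Cry2 in each forskolin library. A stretch of 149 exon bases of Cry2 overlaps D930015M05Rik on the opposite strand, and 97.3% of the 50-base stretches of Cry2 were found in no other gene. D930015M05Rik itself, at a mean of 1.46 CPM in vehicle and 2.65 CPM in forskolin libraries, was far below Cry2. It moved in the same direction as Cry2, with a log2 fold change of 0.86 (edgeR adjusted p = 0.0121).

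Clock and Arntl encode the activating pair. Clock (chromosome 5, 76209868 to 76304792, minus strand) was at 156, 153 and 159 CPM with vehicle and 139, 141 and 127 CPM with forskolin. Every forskolin library was below every vehicle library, and the log2 fold change was -0.20 (edgeR SE 0.0476, adjusted p = 0.00189). The change is small, and 53.3% of all genes tested had a larger absolute one. Arntl (chromosome 7, 113207465 to 113314126, plus strand) was at 23.0, 20.5 and 22.3 CPM with vehicle and 24.0, 25.4 and 25.6 CPM with forskolin. The groups did not overlap, but the log2 fold change of 0.19 (unadjusted 95% interval 0.01 to 0.37) had an edgeR adjusted p of 0.0693. It passed with library size alone (adjusted p = 0.0295), with upper quartile factors (0.0374) and without forskolin A (0.046). Within a library, the level of Clock relative to Arntl per exon length was 2.01 to 2.21 with vehicle and 1.48 to 1.72 with forskolin.

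Dbp and Nfil3 encode factors that compete at D-boxes, DBP as activator and NFIL3, also called E4BP4, as repressor. Nfil3 (chromosome 13, 52967209 to 52981039, minus strand) was at 56.7, 55.0 and 52.0 CPM with vehicle and 104, 107 and 106 CPM with forskolin. The libraries of a group lay within a few CPM of each other and the groups were far apart, with a log2 fold change of 0.95 (edgeR SE 0.0522, adjusted p = 4.1e-11). Dbp (chromosome 7, 45705247 to 45710203, plus strand) was at 6.16, 6.36 and 3.58 CPM with vehicle and 9.43, 8.95 and 9.25 CPM with forskolin. Vehicle C was low, with 45.5 counts, and the other vehicle libraries also lay below all forskolin libraries. The log2 fold change was 0.76 (edgeR SE 0.178, adjusted p = 0.00177), and 0.55 without vehicle C (adjusted p = 0.0114).

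The counts of Dbp are uncertain, since 539 of the 1837 bases of its annotated transcript (29.3%) overlap Sphk2, a sphingosine kinase gene on the opposite strand. Of the 50-base stretches of Dbp, 72.5% were found in no other gene. Both strands were searched, so the shared stretches include this same overlap. The row counted has 1672 exon bases. The labels do not say that strand was used in counting. Sphk2 was at 50.4, 54.8 and 50.2 CPM with vehicle and 44.9, 45.8 and 41.5 CPM with forskolin. It moved in the direction opposite to Dbp, with a log2 fold change of -0.23 (edgeR adjusted p = 0.0064). The level of Nfil3 relative to Dbp per exon length was 7.27 to 12.2 with vehicle and 9.25 to 10.04 with forskolin. The overlap rests on vehicle C, at 12.2, since vehicle A and B, at 7.73 and 7.27, lay below all forskolin libraries.

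Bhlhe40 encodes DEC1, an E-box repressor that hormones and cyclic AMP are known to induce. It lies on chromosome 6, 108660629 to 108666925, plus strand, and was at 147, 150.3 and 138 CPM with vehicle and 230.1, 244 and 236 CPM with forskolin. All forskolin libraries lay well above the vehicle libraries, with a log2 fold change of 0.71 (edgeR SE 0.0451, adjusted p = 3.14e-10). An antisense RNA, 0610040F04Rik, shares 118 exon bases with it and had a mean of 5.52 CPM in vehicle and 8.29 CPM in forskolin libraries. This RNA moved in the same direction as Bhlhe40, with a log2 fold change of 0.58 (edgeR adjusted p = 0.00439). The Bhlhe40 paralog Bhlhe41, which encodes DEC2, was at 25.4, 26.8 and 24.0 CPM with vehicle and 17.3, 18.4 and 12.2 CPM with forskolin. Bhlhe41 fell by 0.67 on the log2 scale (edgeR adjusted p = 0.000146), and the ratio of Bhlhe40 to Bhlhe41 per exon length was 11.05 to 11.4 with vehicle and 26.2 to 38.3 with forskolin. The count of Bhlhe41 is uncertain, as 647 of the 744 bases of its annotated transcript overlap Gm43909 on the opposite strand. The row counted has a far greater exon length than that transcript, and its own overlap was not measured.

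Compared per exon length (CPM per kb), the transcript levels spanned a wide range in both groups. With vehicle the order from highest to lowest was Bhlhe40 (46.7 ± 2.09 CPM per kb, SD, n = 3), Nfil3 (27.4 ± 1.19), Clock (16.1 ± 0.35), Cry1 (9.18 ± 0.137), Per1 (8.32 ± 0.143), Arntl (7.60 ± 0.451), Cry2 (7.48 ± 0.611), Dbp (3.21 ± 0.928), Per2 (3.08 ± 0.109) and Per3 (0.853 ± 0.0243). Arntl and Cry2 overlapped, as did Dbp and Per2, and the other neighbours in this order did not. With forskolin Bhlhe40 (76.3 ± 2.31 CPM per kb) and Nfil3 (53.1 ± 0.80) again led and Per3 (1.24 ± 0.234) was again lowest. Cry2 (13.9 ± 0.63) stood beside Clock (13.98 ± 0.766), with overlapping libraries, and Per2 (6.50 ± 0.542) lay above Dbp (5.51 ± 0.144). Cry1, Per1 and Arntl were at 10.02 ± 0.749, 8.71 ± 0.817 and 8.66 ± 0.296 CPM per kb, and each overlapped its neighbour in that order. Bhlhe40 and Nfil3, which both encode repressors, thus had the highest levels in both groups.

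**Figure D3:**
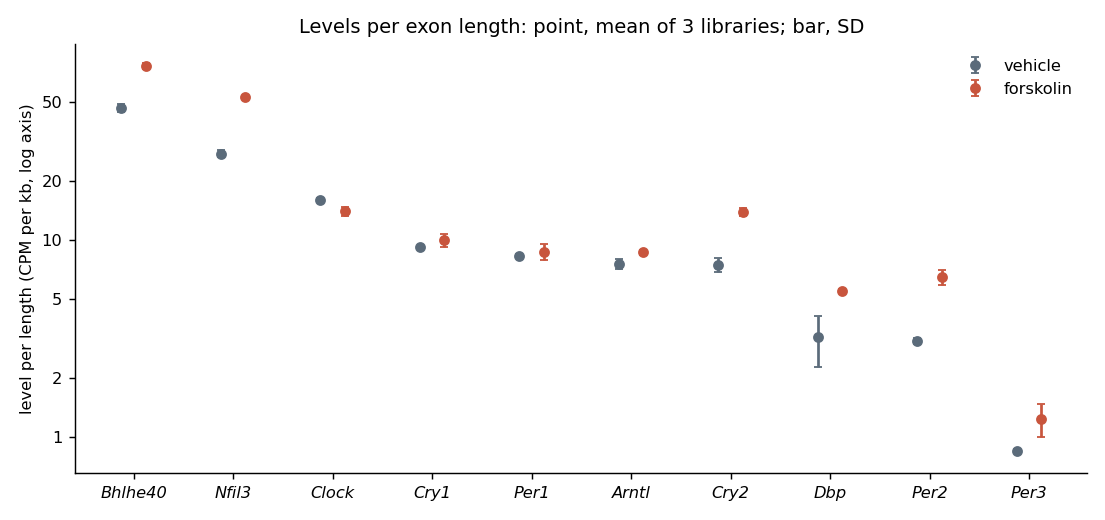
Level of each clock gene per exon length (CPM per kb, log axis) with vehicle (grey) and forskolin (red), in the order of the vehicle means. Points are means of 3 libraries and bars SDs; Cry2 and Per2 move up past neighbours with forskolin, and Bhlhe40 and Nfil3 are highest in both groups.

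The other genes of the clock were read from 5 lists with 39 genes, of which 37 could be tested. Of these, 16 rose and 9 fell, where 24.8% of all genes tested rose and 25.1% fell, and their median log2 fold change was 0.10. With library size as a covariate 9 rose and 6 fell, and the genes that lost their call are named list by list, those outside the naming rule after their values were seen. In the list of the coupled loop, Nr1d2 rose and Nr1d1 fell, and these genes encode closely related repressors, REV-ERB beta and alpha. Nr1d2 was at 59.8, 58.1 and 55.0 CPM with vehicle and 84.6, 82.6 and 72.9 CPM with forskolin, a log2 fold change of 0.47 (edgeR SE 0.0626, adjusted p = 5.48e-06). Nr1d1 was at 44.99, 47.0 and 43.9 CPM with vehicle and 32.99, 29.5 and 22.4 CPM with forskolin, a log2 fold change of -0.68 (edgeR SE 0.0993, adjusted p = 1.58e-05). The ratio of Nr1d2 to Nr1d1 per exon length was 0.737 to 0.791 with vehicle and 1.53 to 1.94 with forskolin. Nr1d1 shares 263 exon bases with Thra on the opposite strand, which had a mean of 26.3 CPM in vehicle and 23.7 CPM in forskolin libraries (edgeR adjusted p = 0.131). The activator gene Rora was at 57.5 ± 3.77 and 53.9 ± 5.06 CPM (n = 3 each, edgeR adjusted p = 0.30). Rorb, named here after its values were seen, was at a mean of 0.37 CPM with vehicle and 0.84 CPM with forskolin. It did not pass the filter on low counts over all 6 libraries, and it was not called when no filter was used. Without forskolin A, its lowest forskolin library, it entered the test and was called higher. That call is no support, because Rorb passed the filter only through the forskolin libraries where it was high.

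Among 7 paralogs and partners of the core proteins 2 rose and 3 fell, where 49.9% of all genes tested passed in either direction. Of these, Arntl2 lost its call with library size as a covariate, with DESeq2 and without forskolin A, forskolin B, vehicle A or vehicle C. Npas2, a Clock paralog that can replace it, was at 10.5, 11.02 and 8.74 CPM with vehicle and 5.01, 5.36 and 5.59 CPM with forskolin, and fell by 0.92 on the log2 scale (edgeR SE 0.149, adjusted p = 5.1e-05). Clock and its paralog were thus both lower, Npas2 by more, and the ratio of Clock to Npas2 per exon length was 5.93 to 7.80 with vehicle and 9.74 to 11.9 with forskolin. Ciart, which encodes the repressor CHRONO, was low in all libraries, at 2.47, 2.95 and 2.48 CPM with vehicle and 5.65, 4.76 and 4.89 CPM with forskolin, and rose by 0.93 (edgeR adjusted p = 0.000674). Its count is uncertain, as 78.8% of its 50-base stretches were found in no other gene. Cipc, which encodes a CLOCK-binding inhibitor, fell by 0.37, from 72.0 ± 3.06 to 56.0 ± 4.14 CPM (n = 3 each, edgeR adjusted p = 8.41e-05).

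Of 6 outputs of the clock 3 rose and 2 fell, against 24.8% and 25.1% of all genes tested. With library size as a covariate, Usp2 alone of the 6 kept its call. The ubiquitin protease gene Usp2, a direct target of CLOCK and BMAL1 in liver, was at 4.06, 4.59 and 4.76 CPM with vehicle and 6.61, 11.3 and 11.4 CPM with forskolin, with a log2 fold change of 1.14 (edgeR SE 0.194, adjusted p = 8.6e-05). Wee1, the kinase gene that holds back mitotic entry, was at 32.8, 36.1 and 30.4 CPM with vehicle and 14.6, 24.2 and 23.7 CPM with forskolin. It fell by 0.66 (edgeR adjusted p = 0.00036), and with library size as a covariate by 0.24 (adjusted p = 0.262). Forskolin A was the lowest forskolin library for both Usp2 and Wee1. Tef and Hlf encode the other proteins of the Dbp family. Tef rose by 0.19, from 52.4 ± 1.08 to 59.9 ± 2.46 CPM (edgeR adjusted p = 0.0099), a call lost without forskolin B (adjusted p = 0.063) and with library size as a covariate (0.0717). Hlf was low, at 1.77 ± 0.109 and 2.15 ± 0.614 CPM (edgeR adjusted p = 0.428). Nampt, which encodes an enzyme of NAD salvage, rose by 0.24 (edgeR adjusted p = 0.00241), and the nocturnin gene Noct fell by 0.38 (adjusted p = 0.00482), both calls being lost with library size as a covariate (adjusted p = 0.0739 and 0.506).

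Of 10 genes for kinases and ubiquitin ligases that set PER and CRY stability, 4 rose and 2 fell, all by less than 2-fold. That is 6 of 10, near the 49.9% of all genes tested that passed. Gsk3b and Fbxl21, among those that rose, lost their call with library size as a covariate. Fbxl21 also lost it with DESeq2 and without forskolin A, forskolin C, vehicle A or vehicle B. Prkaa2, a catalytic subunit gene of AMP-activated kinase, which marks CRY1 for removal, fell by 0.60, from 32.0 ± 1.80 to 21.1 ± 2.37 CPM (n = 3 each, edgeR adjusted p = 2.26e-05). The casein kinase 2 subunit gene Csnk2a1 rose by 0.37, from 61.9 ± 3.12 to 80.2 ± 3.12 CPM (edgeR adjusted p = 2.35e-05), though 44.4% of its 50-base stretches were found in no other gene, so that its count is uncertain. The paralogs Btrc and Fbxw11, whose products tag PER proteins for degradation, moved apart, Btrc rising by 0.28 (adjusted p = 0.00559) and Fbxw11 falling by 0.17 (adjusted p = 0.0029). The call of Fbxw11 was lost with library size as a covariate (adjusted p = 0.0817).

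Along the route from cyclic AMP to the Per genes, 6 of 11 genes rose and 1 fell, where 24.8% and 25.1% of all genes tested did. Atf1 and Sik2, among those that rose, lost their call with library size as a covariate. Sik2 also lost it without forskolin B and without vehicle C. The repressor gene Crem, at 20.1 to 21.6 CPM with vehicle and 83.0 to 86.0 CPM with forskolin, and Sik1, a kinase gene that restrains CREB coactivators and clock resetting, at 74.6 to 79.4 and 199.8 to 226 CPM, had much larger changes than any of the clock genes (log2 fold changes 2.001 and 1.48, edgeR adjusted p = 2.41e-14 and 9.23e-14). Creb1 itself rose by 0.45, from 50.4 ± 1.29 to 69.0 ± 2.41 CPM (n = 3 each, edgeR adjusted p = 2.82e-06). The coactivator gene Crtc3 rose by 0.32, from 47.7 ± 1.85 to 59.5 ± 3.99 CPM (edgeR adjusted p = 0.000443).

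**Figure D4:**
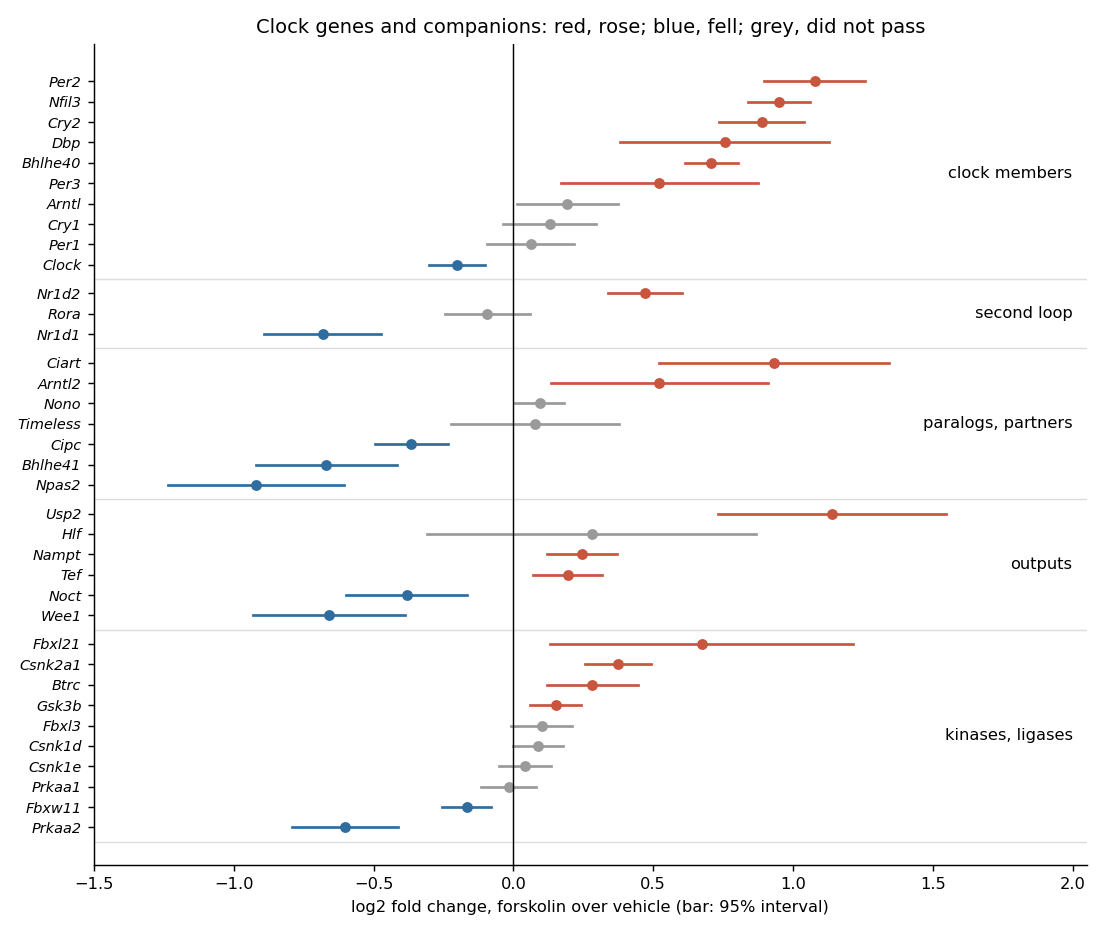
Log2 fold change, forskolin over vehicle (horizontal axis), of the 10 clock genes and of 26 tested companions in 4 lists, with unadjusted 95% intervals. Red genes rose, blue genes fell and grey genes did not pass at an adjusted p of 0.05; Nr1d2 lies opposite to Nr1d1, and Npas2 and Bhlhe41 lie opposite to most clock genes.

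The within-library ratios above need no scaling between libraries. Of 10 ratios computed between related clock genes, that of Nfil3 to Dbp overlapped between the groups and the other ratios did not. The pairs were chosen with results of these data known, and ratios of other gene pairs were not computed, so this count is a description only. An exact two-sided permutation test of 3 against 3 libraries cannot give a p below 0.1, which was the value for each of the 9 ratios that did not overlap (0.111 after Benjamini-Hochberg adjustment over the 10), so none could pass 0.05. The ratio of Nfil3 to Dbp had an exact permutation p of 0.6.

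**Figure D5:**
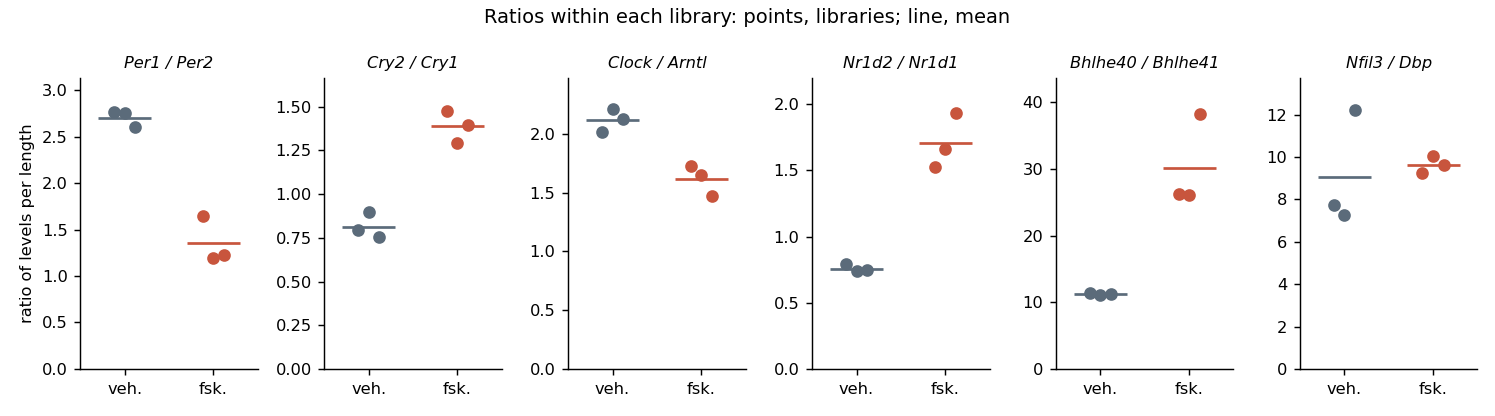
Ratio of the levels per exon length of 6 pairs of clock genes (vertical axes from 0) in each vehicle (veh.) and forskolin (fsk.) library. Points are libraries and lines means; 5 ratios are apart between the groups, and that of Nfil3 to Dbp overlaps, vehicle C lying above all forskolin libraries.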

How the data were processed

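Polyadenylated RNA was counted in 6 libraries, 3 per group. The authors deposited 1 table of estimated counts per gene, not normalized, in steps of 0.5, of which 31.8% were not whole. The tools STAR and HOMER and the build mm10 are named per the submitters' processing notes, with no version, setting or use of strand. The table also holds each transcript's exon length, another deposited value.

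Counts were rounded and tested with edgeR 4.0.16 in R 4.3.3 (filterByExpr with a minimum count of 10 and a minimum total of 15, TMM scaling, glmQLFit and glmQLFTest, group as the only term). P-values are two-sided and were adjusted by the Benjamini-Hochberg method over all 13357 genes tested, with a threshold of 0.05. SEs come from the F statistic, and 95% intervals are not adjusted. CPM were computed on TMM-scaled library sizes, and CPM per kb divides by 1000 bases of exon. Member counts per library ran from 45.5 to 3235.5. The fit was also run on simulated counts in which far fewer genes changed than passed here. That run therefore cannot speak for the scaling or the error rate in these data. Exon overlaps and 50-base stretches come from GENCODE M21, promoters from RefSeq.

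The members and lists were chosen with earlier results of these data known. Named are all 10 members, up to 4 genes past the threshold from each companion list by smallest adjusted p, and Npas2, Nr1d1, Nr1d2, Rora, Bhlhe41, Ciart, Tef and Hlf; genes named for overlap were chosen after their values were seen. Alternatives were other scalings, DESeq2 1.42.0, limma-voom (limma 3.58.1), no filter, unrounded counts, a replicate block, library size as a covariate and leaving out each library.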

Additional observations from a re-analysis of the deposited data

How the results depend on the processing

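The same 6 clock genes were higher and Clock was lower under DESeq2 size factors, DESeq2, limma-voom, unrounded counts, no filter and the replicate block, and Clock was the 1 lower gene under all 15 alternatives. Counts of clock genes past the threshold were 6 to 8. With library size as a covariate, 4297 genes passed over the whole table (1998 higher) and 15 of the companion genes (9 higher), in place of 6668 (3319) and 25 (16); the cause was not tested, but library size and group move together here. Per1, which did not pass, turned to -0.048 with that covariate and to -0.012 without forskolin A (-0.012 to 0.11 over the libraries left out in turn), and Hlf to -0.24 with the covariate. Whether replicate letters pair the libraries is not stated, and these values cannot settle it. Same-letter correlations of deviations from group means were only 0.0203 to 0.0377, although each library correlated best with its own letter. With the replicate block 6675 genes passed in all, 7 clock genes and 26 companions. Leaving out each library in turn gave 5640 to 6800 genes, 7 clock genes each time and 22 to 26 companions. Without forskolin A the 7 clock genes included Arntl and not Per3, and without any other library they were the same as in the main fit. Dbp and Per3, with 45.5 to 118.5 counts per library, are the members whose values depth limits most.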
